A study of Mus musculus with 22 samples.

Results

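The genes of the MHC class II antigen presentation system were followed across leg and extraocular muscle of SJL and Balb mice. The members are every probe set annotated to H2-Aa, H2-Ab1, H2-Ea, H2-Eb1, Cd74, H2-DMa or H2-DMb1. That rule uses no measured value, but the genes were picked with earlier results of these data known. The rule gave 8 probe sets out of 12488 on the array, for 7 of the 8251 genes named by a probe set with 1 symbol, and all 8 passed the filter on low values. H2-DMa had 2 probe sets, called the brighter and the dimmer here, and the other genes had 1 each. A further probe set, annotated to both H2-DMb1 and H2-DMb2, names no single gene and was not tested.

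Total RNA was measured on 22 Affymetrix arrays, 1 intensity per probe set and array. SJL and Balb mice were compared in leg muscle and in extraocular muscle (EOM), which turns the eyeball, at 10 months and at 12 months, the labels' 1 year. Each of the 8 groups of strain, muscle and age had 3 arrays, except the EOM groups at 12 months, which had 2. The labels name no substrain, sex, H2 haplotype or treatment. Whether a replicate was its own animal is not stated, and p-values measure only the spread between these samples. SJL mice are known for a dysferlin mutation that gives a progressive muscular dystrophy, and the mutation cannot be told apart from the other genetic differences between the strains in this design.

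A class II molecule is a pair of chains, alpha and beta, that shows peptides to helper T cells. The mouse has an A molecule, made of H2-Aa and H2-Ab1, and an E molecule, made of H2-Ea and H2-Eb1. Cd74, the invariant chain, holds newly made pairs and guides them to endosomes, where H2-DM, made of H2-DMa and H2-DMb1, helps to exchange the Cd74 remnant for peptide. Macrophages, dendritic cells and B cells express these genes at high levels, and resting muscle fibres do not. Their promoters share an X box, bound by the RFX complex, and a Y box, bound by NF-Y, on which the coactivator Ciita acts. H2-Ea is an exception among strains: mice of haplotypes b and s carry a promoter deletion and make no H2-Ea transcript, while haplotype d expresses it. SJL is known as haplotype s and Balb as haplotype d.

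The 4 replicate 1 arrays at 10 months, 1 in each strain and muscle, stood apart in RNA quality. Their Actb 3 prime to 5 prime probe ratio was 5.05 to 53.7, against 0.847 to 1.93 on the other 18 arrays. The Gapdh ratio did not separate them, at 2.17 to 19.9 against 0.0534 to 6.71, with SJL EOM replicates 2 and 3 at 10 months at 6.71 and 4.66. Most results are therefore given for all 22 arrays and for those 18 arrays. The tissue labels were met by the markers: Myh3, an embryonic myosin that EOM retains, lay at 175 to 727 in leg and 5892 to 17488 in EOM, and Hoxc9, a homeobox gene of the trunk and limbs, at 815 to 1301 in leg and 9.4 to 249 in EOM. Array medians were lower at 12 months (423.1 to 561) than at 10 months (565.8 to 650.6) with no overlap, so age differences carry that shift.

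Promoter windows of 3 of the 7 genes in the C57BL/6J reference held the X and Y boxes at their usual spacing, and they are shown for that. The windows are 250 bases before the start of the gene in RefSeq, build GRCm38.p6, read 5′ to 3′ on the gene's strand. Capitals mark an X core (GNAAC) followed after 20 to 30 bases by a Y core (TGATTGG). The windows are chr17:34287824-34288073 on the minus strand for H2-Aa, chr17:34305617-34305866 on the plus strand for H2-Eb1, and chr17:34152941-34153190 on the plus strand for H2-DMb1.
H2-Aa: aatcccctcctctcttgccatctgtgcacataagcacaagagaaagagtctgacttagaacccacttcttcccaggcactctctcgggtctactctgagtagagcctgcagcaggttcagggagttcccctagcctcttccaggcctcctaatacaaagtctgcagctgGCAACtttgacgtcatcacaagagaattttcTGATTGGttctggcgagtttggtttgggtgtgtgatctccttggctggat
H2-Eb1: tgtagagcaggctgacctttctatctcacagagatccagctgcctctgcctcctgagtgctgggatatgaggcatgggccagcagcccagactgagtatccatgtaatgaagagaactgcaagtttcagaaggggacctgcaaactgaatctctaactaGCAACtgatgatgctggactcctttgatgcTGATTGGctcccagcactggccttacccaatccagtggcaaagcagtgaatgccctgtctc
H2-DMb1: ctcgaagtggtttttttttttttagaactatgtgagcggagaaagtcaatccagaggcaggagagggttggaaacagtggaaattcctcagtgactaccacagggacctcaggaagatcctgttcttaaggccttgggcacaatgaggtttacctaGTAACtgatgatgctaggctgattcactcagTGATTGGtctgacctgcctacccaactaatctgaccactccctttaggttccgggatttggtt
The gap between the cores was 26, 25 and 26 bases in that order. The Y core, searched on both strands, was in 7.23% of 32851 windows and the short X core in 79.58%, but the spaced pair was in 89 windows, or 0.2709%. H2-Oa, H2-Ob and H2-Eb2, other class II genes, also held the spaced pair. H2-DMb2 held the Y core without the spaced pair, and the 2 H2-DMa windows held no Y core. Windows of H2-Ab1, H2-Ea and Cd74 were not used here. These are letters of a reference strain that is neither SJL nor Balb, and a match is a description of sequence, not of a bound site. The same reference lists H2-Ea as a transcribed pseudogene.

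The members fell into groups by how the strains differed. H2-Ea was lower in SJL than in Balb in both muscles, whichever arrays were used. H2-Aa, H2-Ab1, H2-Eb1 and Cd74 were higher in SJL leg on the 18 arrays, by 2.13-fold to 4.52-fold, and of these H2-Aa and H2-Eb1 also in SJL EOM, by 1.49-fold and 1.44-fold. On all 22 arrays none of these rises passed, although H2-Eb1 in leg was close to the threshold (adjusted p = 0.0521) and passed under some other settings. H2-DMa and H2-DMb1 passed no strain test averaged over ages. In leg on 22 arrays, 1 of the 8 probe sets was lower and 0 were higher, where 1.41% of the 8695 probe sets tested were called (0.736% higher, 0.679% lower). On 18 arrays 1 was lower and 4 were higher, against 8.18% of probe sets called (4.07% higher, 4.11% lower). The median leg difference of the 8 probe sets was 0.84 on the log2 scale on 22 arrays and 0.99 on 18, beside -0.02 for all probe sets tested in both cases. In EOM 1 was lower and 0 were higher on 22 arrays (0.932% of probe sets called, 0.368% higher and 0.564% lower), and 1 was lower and 2 were higher on 18 (8.26%, 3.75% higher and 4.51% lower). The median EOM difference was 0.24 on 22 arrays and 0.25 on 18, beside -0.04 and -0.02 for all probe sets tested. Counted by arrays that do not overlap between strains within each age, 0 of 8 were separated in leg on 22 arrays, where 1.38% of probe sets were higher and 1.54% lower in every SJL array. On 18 arrays 4 were higher and 1 lower in leg (5.22% and 5.89% of probe sets), and in EOM 3 were higher and 1 lower (8.71% and 8.66%). On 22 arrays H2-Ea alone of the members was separated in EOM, with 1.6% of probe sets higher and 2.1% lower.

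**Figure D1:**
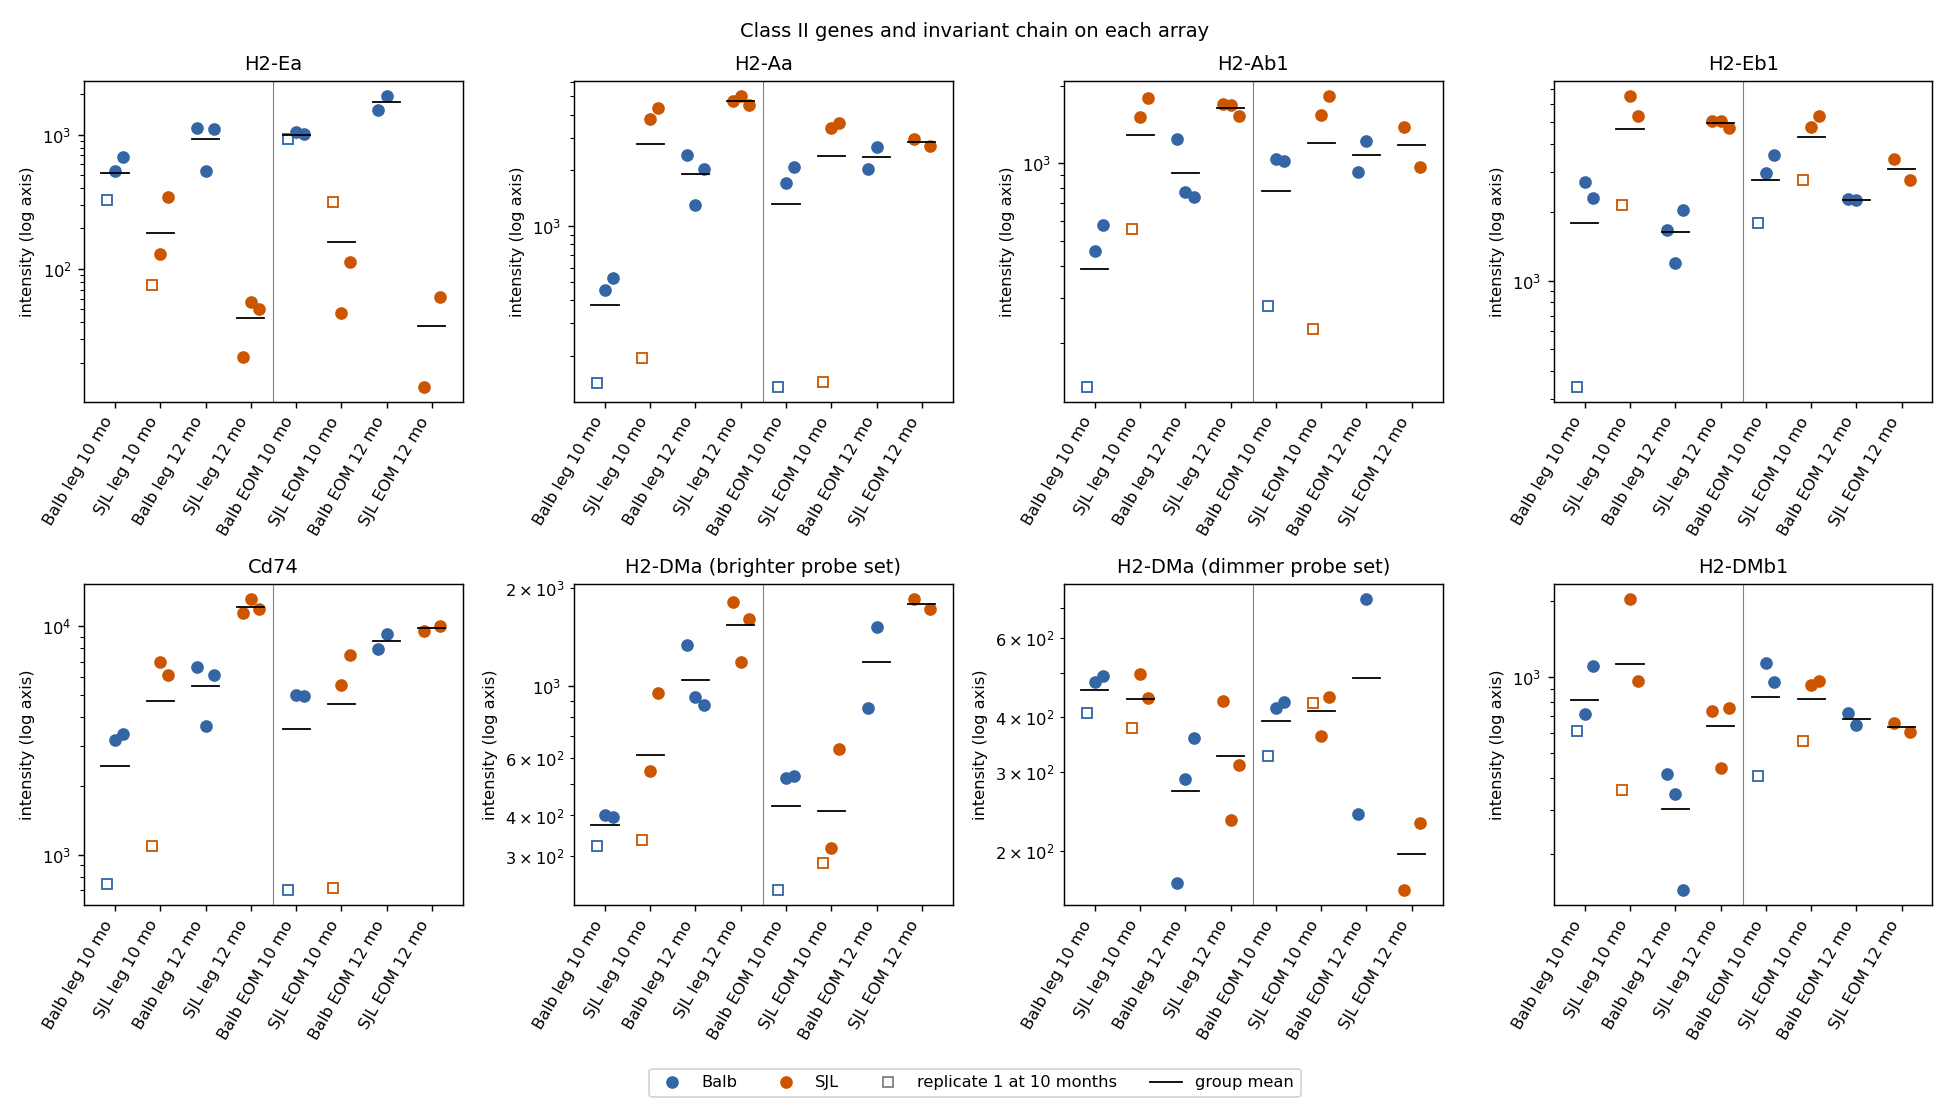
Intensity (log axis) of each probe set on each array in the 8 groups of strain, muscle and age (10 mo and 12 mo are months); circles are arrays, open squares the 4 replicate 1 arrays at 10 months, and black lines group means. H2-Ea lies between 323.3 and 1949.6 in Balb and between 13.1 and 345.1 in SJL, whereas H2-Aa reaches 5054.7 in SJL leg.

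H2-Ea, the alpha chain of the E molecule, was lower in SJL in both muscles. In Balb leg its intensity was 323.3, 534.8 and 683.8 at 10 months and 1125.7, 537.0 and 1106.4 at 12 months (replicates 1 to 3). In SJL leg it was 76.3, 129.5 and 345.1 at 10 months and 22.1, 56.2 and 50 at 12 months. The strains overlapped in leg only at 10 months, where the highest SJL array lay just above the lowest Balb array, itself one of the arrays set apart by RNA quality. In Balb EOM the intensity was 919.9, 1047.2 and 1012.4 at 10 months and 1523.2 and 1949.6 at 12 months. In SJL EOM it was 313.3, 47.3 and 112.9 at 10 months and 13.1 and 61.8 at 12 months. No SJL EOM array came near a Balb EOM array.

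The strain difference of H2-Ea in leg, averaged over ages, was -2.78 (log2, SE 0.41, adjusted p = 0.000908), a 6.87-fold lower level in SJL. In EOM it was -4.02 (SE 0.46, adjusted p = 6.09e-05), or 16.3-fold lower. On 18 arrays the values were -2.71 (adjusted p = 0.000199) and -4.36 (adjusted p = 6.01e-06). All fold changes here are on the log2(intensity + 16) scale, which understates the change of a probe set as dim as H2-Ea in SJL. Within its array, H2-Ea ranked at percentile 38.8 to 77.4 of all probe sets in Balb (median 61.5) and at 2.75 to 39.3 in SJL (median 14.4). Whether the SJL intensities exceeded background was not tested, since the values came with no detection call. The probe sequences were not used here, so a mismatch between a probe and a strain's allele was not tested for any member.

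By group mean, H2-Ea was highest in Balb EOM at 12 months (1736.4 ± 301.5, SD, n = 2), followed by Balb EOM at 10 months (993.2 ± 65.8, n = 3), Balb leg at 12 months (923.0 ± 334, n = 3) and Balb leg at 10 months (514.0 ± 181, n = 3). The 4 SJL groups followed, from 183.6 ± 142 in leg at 10 months to 37.5 ± 34.4 in EOM at 12 months (n = 2). Only the first of these groups was clear of its neighbour in that order, and every later pair of neighbours had overlapping ranges.

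H2-Aa, the alpha chain of the A molecule, had the largest rise in SJL leg among the members on the 18 arrays. In Balb leg it was 143.9, 455.3 and 530.5 at 10 months and 2426.2, 1300.0 and 2031.2 at 12 months. In SJL leg it was 194.6, 3785.2 and 4351.3 at 10 months and 4718.6, 5054.7 and 4481.2 at 12 months. Apart from replicate 1 at 10 months, every SJL leg array lay above every Balb leg array, and the 4 replicate 1 arrays at 10 months were the lowest 4 of all 22 for this gene. In EOM the Balb arrays gave 135.9, 1716.1 and 2085.8 at 10 months and 2037.5 and 2682.4 at 12 months. The SJL EOM arrays gave 145.6, 3388.1 and 3606.8 at 10 months and 2967.1 and 2705.7 at 12 months. At 12 months the EOM strains were close, with the highest Balb array just under the lowest SJL array. The leg difference was 1.74 (log2, SE 0.84, adjusted p = 0.623) on 22 arrays and 2.18 (SE 0.15, adjusted p = 5.83e-08), or 4.52-fold, on 18. In EOM it was 0.45 (adjusted p = 0.991) on 22 arrays and 0.58 (SE 0.16, adjusted p = 0.0353) on 18. In bulk muscle, more cells that express a gene and more RNA per cell cannot be told apart.

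H2-Ab1, the beta chain paired with H2-Aa, was also higher in SJL leg on the 18 arrays. It was 134.8, 456.9 and 574.4 in Balb leg at 10 months and 1243.9, 775.6 and 742.7 at 12 months. In SJL leg it was 556.6, 1514.7 and 1789.5 at 10 months and 1699.2, 1679.5 and 1531.7 at 12 months. Without the replicate 1 arrays at 10 months, the strains did not overlap in leg. EOM values ran from 280.3 to 1224.7 in Balb and from 227.6 to 1834.0 in SJL, and the strains overlapped at 12 months and, through the replicate 1 arrays, at 10 months. The leg difference was 1.30 (SE 0.49, adjusted p = 0.366) on 22 arrays and 1.26 (SE 0.17, adjusted p = 0.000112), or 2.39-fold, on 18. The EOM difference was 0.25 (adjusted p = 0.991) and 0.41 (95% interval 0.02 to 0.80, adjusted p = 0.198).

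H2-Eb1, the beta chain of the E molecule, rose in SJL leg on 18 arrays while its partner H2-Ea was lower there. Balb leg gave 337.3, 2732.8 and 2323.3 at 10 months and 1672.9, 1189.3 and 2041.3 at 12 months. SJL leg gave 2149.7, 6554.3 and 5319.9 at 10 months and 5045.5, 5046.0 and 4726.0 at 12 months. The lowest of the 5 SJL leg arrays among the 18 lay at 4726.0 and the highest Balb leg array at 2732.8. In EOM the Balb values were 1786.1, 2985.9 and 3582.2 at 10 months and 2295.0 and 2256.5 at 12 months, and the SJL values were 2774.4, 4768.3 and 5318.7 at 10 months and 3429.5 and 2776.3 at 12 months. Only replicate 1 of SJL at 10 months reached into the Balb range of its own age. The leg difference was 1.65 (SE 0.41, adjusted p = 0.0521), or 3.15-fold, on 22 arrays and 1.42 (SE 0.13, adjusted p = 1.84e-06), or 2.68-fold, on 18. The EOM difference was 0.53 on both, with adjusted p = 0.903 on 22 arrays and 0.0308 on 18. On 22 arrays the leg difference passed with median centring (adjusted p = 0.0430), a pseudocount of 64 (0.0460), the lowest 50% of probe sets removed (0.0466) or a replicate block (0.0158). It also passed when any of 6 arrays at 10 months was left out: Balb leg replicate 1 (1.18, adjusted p = 0.0334), 2 (1.92, 0.0221) or 3 (1.86, 0.0369), SJL leg replicate 1 (1.90, 0.0182), Balb EOM replicate 1 (1.65, 0.0483) or SJL EOM replicate 1 (1.65, 0.0477).

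Cd74, the invariant chain, was higher in SJL leg on the 18 arrays, as were the A chains. Balb leg gave 745.5, 3180.0 and 3385.0 at 10 months and 6625.3, 3658.1 and 6095.6 at 12 months. SJL leg gave 1096.9, 6939.6 and 6114.6 at 10 months and 11410.8, 13179.6 and 11849.0 at 12 months. Every SJL leg array at 12 months lay far above the Balb arrays of that age. In EOM Cd74 was 698.8, 4976.3 and 4961.8 in Balb at 10 months and 7938.9 and 9222.2 at 12 months, against 717.7, 5547.6 and 7463.3 and then 9516.6 and 10019.5 in SJL. The EOM strains separated by narrow margins on the 18 arrays. The leg difference was 1.02 (SE 0.62, adjusted p = 0.780) on 22 arrays and 1.09 (SE 0.14, adjusted p = 6.86e-05), or 2.13-fold, on 18. In EOM it was 0.23 (adjusted p = 0.991) and 0.28 (95% interval -0.04 to 0.60, adjusted p = 0.291).

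The H2-DM genes, which edit the peptide load, showed no strain difference that passed the test averaged over ages. At its brighter probe set, H2-DMa ran from 322.2 to 1338.5 in Balb leg and from 335.6 to 1814.8 in SJL leg. The leg difference was 0.56 (SE 0.28, adjusted p = 0.654) on 22 arrays and 0.69 (95% interval 0.20 to 1.19, adjusted p = 0.0854) on 18. The dimmer probe set gave 0.10 (adjusted p = 0.974) on 22 arrays and 0.11 (adjusted p = 0.897) on 18, so the probe sets of this gene differed in size. In EOM they differed also in sign, with 0.29 at the brighter and -0.50 at the dimmer on 22 arrays (adjusted p = 0.961 and 0.754). H2-DMb1 ran from 143.6 to 1108.4 in Balb leg and from 357.9 to 2044.1 in SJL leg, with a difference of 0.66 (adjusted p = 0.733) on 22 arrays and 0.89 (95% interval 0.30 to 1.49, adjusted p = 0.0645) on 18. In EOM its difference was -0.03 on 22 arrays and turned positive under quantile normalization (0.07) and median centring (0.08). The untested probe set annotated to both H2-DMb1 and H2-DMb2, its near copy, averaged 359.5 ± 30.2 (SD, n = 3) in SJL leg at 12 months and 24.8 to 95.6 in the other 7 groups.

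**Figure D2:**
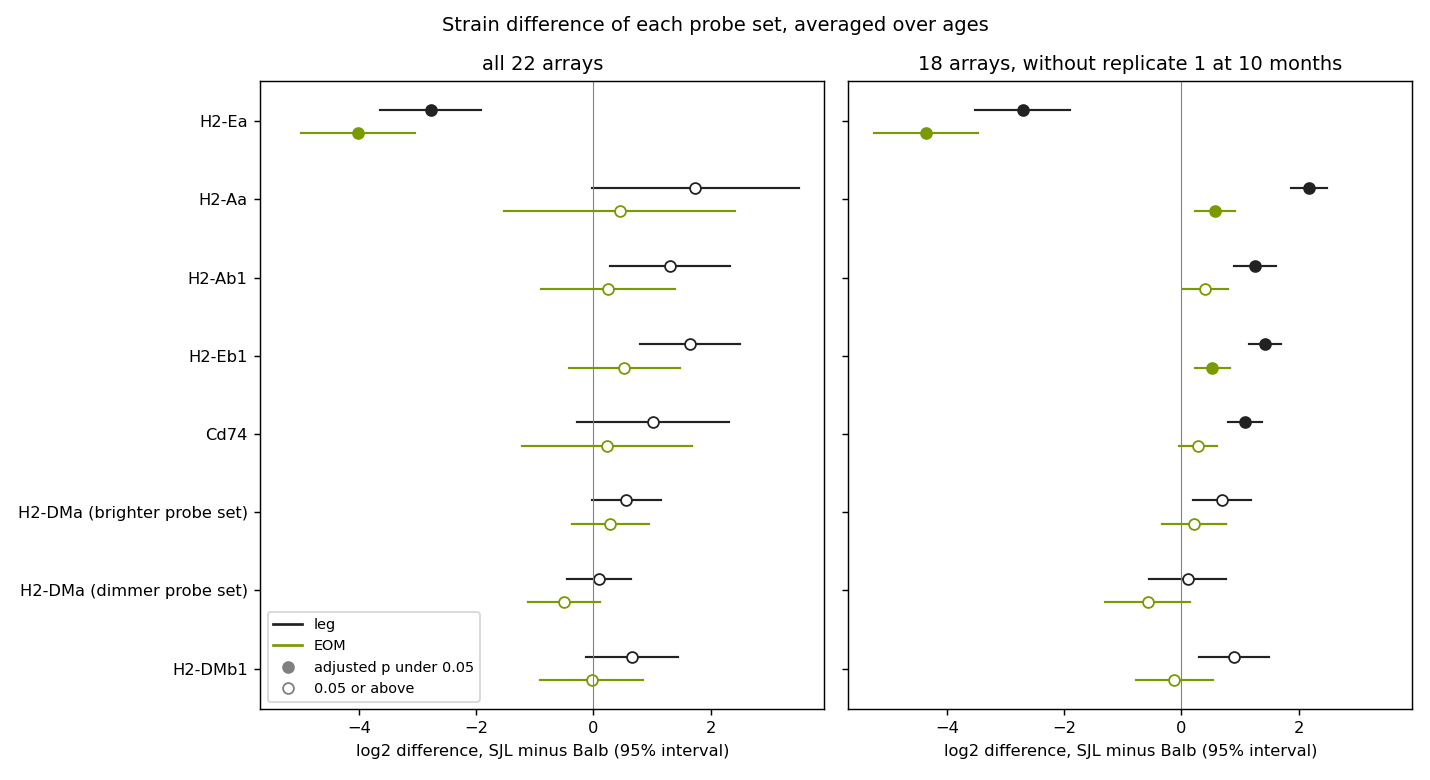
Strain difference (SJL minus Balb, log2) of each probe set averaged over ages, with 95% intervals, in leg and EOM, on 22 arrays and on 18 arrays; filled points have an adjusted p under 0.05. H2-Ea is negative in both muscles; on 18 arrays H2-Aa is at 2.18 in leg and 0.58 in EOM, and the intervals are narrower than on 22 arrays except for the dimmer H2-DMa probe set.

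The strain difference itself was unequal between the muscles for H2-Aa and H2-Eb1 on the 18 arrays. The leg difference exceeded the EOM difference by 1.60 for H2-Aa (log2, SE 0.22, adjusted p = 0.000865) and by 0.89 for H2-Eb1 (SE 0.19, adjusted p = 0.0227), in a comparison where 1.79% of probe sets were called (1.04% in this direction). Cd74 (0.81, 95% interval 0.38 to 1.24, adjusted p = 0.0574) and H2-Ab1 (0.85, interval 0.32 to 1.37, adjusted p = 0.108) missed the threshold with values of like size. For H2-Ea the value was 1.66 (interval 0.46 to 2.86, adjusted p = 0.177) and missed too. The SJL intensities of H2-Ea were dim and not shown to exceed background, so no difference between the muscles is read from it. On 22 arrays all 8 values had the same sign as on 18, with a median of 0.92. For H2-Ea (1.24) this sign is a smaller deficit of SJL in leg than in EOM, not a rise. On 22 arrays 0 of 8 passed (adjusted p = 0.9996 for each by limma), where 0.092% of probe sets were called. Among the 7 genes 0 had an unadjusted p under 0.05 there. For H2-Aa and H2-Eb1, then, a strain difference passed in both muscles on 18 arrays and was larger in leg, while for Cd74 and H2-Ab1 it passed in leg alone and its excess over EOM did not pass.

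The EOM minus leg values had opposite signs in Balb and SJL. They passed in both strains only for H2-Aa and H2-Eb1, and only on 18 arrays. In Balb, EOM was above leg for all 8 probe sets on 22 arrays (median 0.61, beside 0.11 for all probe sets), with 0 of 8 past the test where 13.6% were called. After median centring or quantile normalization the values of H2-DMa were near 0 and changed sign for the brighter probe set (-0.06 and -0.003) and, with quantile normalization, the dimmer (-0.03). On 18 arrays H2-Aa (1.12, adjusted p = 3.06e-05), Cd74 (0.64, 0.00245), H2-Ab1 (0.62, 0.0122) and H2-Eb1 (0.44, 0.0200) were higher in Balb EOM, in a comparison with 33.4% called (18.4% higher). In SJL, EOM was below leg for all 8 on 22 arrays (median -0.31, beside 0.04), again with 0 of 8 past the test (9.56% called). On 18 arrays H2-Aa (-0.48, adjusted p = 0.0253) and H2-Eb1 (-0.45, 0.0179) were lower in SJL EOM, with 30.8% called (13.7% lower). These comparisons share their arrays with the strain comparisons and are the same group means read the other way.

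H2-Ea values were negative at each age in each muscle. On 22 arrays H2-Ea was -1.58 in leg at 10 months (SE 0.58, adjusted p = 0.573), where 0 of 8 passed against 0.414% of probe sets called, and -3.98 at 12 months (adjusted p = 0.00129; 0.863% called). In EOM it was -2.86 at 10 months (adjusted p = 0.0456; 0.288% called) and -5.19 at 12 months (adjusted p = 0.000858; 0.506% called). The EOM call at 10 months was marginal: leaving out 1 array lost it in 16 of 22 fits, with an adjusted p up to 0.204. It held without SJL leg replicate 1 or 3, Balb leg replicate 1 or SJL EOM replicate 1 at 10 months, or either SJL EOM array at 12 months. On 18 arrays that EOM value at 10 months was -3.53 (adjusted p = 0.00241). The leg value at 10 months missed on 18 arrays as well (-1.44, adjusted p = 0.241).

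On the 18 arrays the rise of the A chains in SJL leg was larger at 10 months than at 12. H2-Aa was higher by 3.01 (adjusted p = 5.94e-07), or 8.03-fold, at 10 months and by 1.35 (adjusted p = 0.000238), or 2.54-fold, at 12. H2-Ab1 was higher by 1.65 (adjusted p = 0.00132) and then 0.86 (adjusted p = 0.0233). H2-Eb1 went the other way, 1.22 and then 1.62, as did Cd74, 0.99 and then 1.19, and all 4 values passed (adjusted p up to 0.0155). On 22 arrays H2-Aa in leg was 2.14 and then 1.35, and H2-Ab1 1.74 and then 0.86. There H2-Aa, H2-Ab1, H2-Eb1 and Cd74 all missed in leg and EOM at both ages (adjusted p of 0.413 or above by limma). The 10-month leg values on 18 arrays compare 2 arrays with 2. Whether a strain difference changed with age was not tested. In EOM on 18 arrays H2-Aa was higher at 10 months (0.88, adjusted p = 0.0348), and none of H2-Aa, H2-Ab1, H2-Eb1 and Cd74 passed at 12 months (0.12 to 0.44). In these 4 comparisons on 18 arrays 3.4%, 5.5%, 4.66% and 3.04% of probe sets were called, for leg at 10 and 12 months and EOM at 10 and 12 months. In leg 1.68% were called higher at 10 months and 2.45% at 12.

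**Figure D3:**
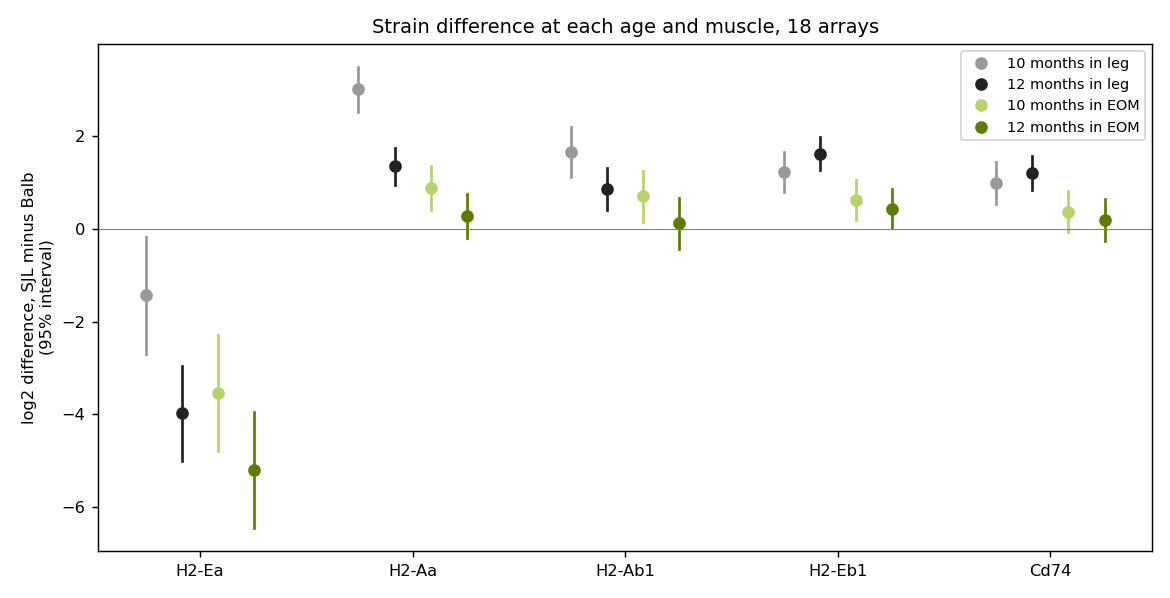
Strain difference (SJL minus Balb, log2, with 95% intervals) at each age in each muscle on 18 arrays for the 4 class II chains and Cd74. H2-Aa in leg is at 3.01 at 10 months and 1.35 at 12 months, and H2-Ea is lowest in EOM at 12 months, at -5.19.

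With age, H2-DMa at its brighter probe set rose in 3 of the 4 strain and muscle groups on 22 arrays. Its level at 12 months was above that at 10 months by 1.42 in Balb leg (log2, adjusted p = 0.0175; 19.1% of probe sets called, 3.21% higher), by 1.41 in SJL leg (adjusted p = 0.0145; 25.3%, 5.96% higher) and by 2.16 in SJL EOM (adjusted p = 0.0037; 14.9%, 2.65% higher). Balb EOM had a value of 1.46 that missed (adjusted p = 0.0525; 7.8%). The 12-month arrays lay between 854.4 and 1853.3 and the 10-month arrays between 235.3 and 954.0, and no 10-month array reached a 12-month array of its own strain and muscle. On 18 arrays all 4 groups passed, with values of 1.05 to 1.95 (adjusted p from 0.00105 to 0.0402). The leg calls were lost without replicate 1 at 10 months of the same group (Balb 1.32, adjusted p = 0.0516; SJL 1.05, 0.0710) or without replicate 1 at 12 months (Balb 1.23, 0.0777; SJL 1.28, 0.0620). The dimmer probe set did not follow, with -0.77, -0.44, -1.02 and 0.12 in Balb leg, SJL leg, SJL EOM and Balb EOM (adjusted p from 0.106 to 0.894).

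On the 18 arrays Cd74 was higher at 12 months in all 4 groups, by 0.69 in Balb leg, 0.78 in Balb EOM, 0.89 in SJL leg and 0.60 in SJL EOM (adjusted p from 0.00157 to 0.0448). In these comparisons, in that order, 42.3%, 21.9%, 48.9% and 29.1% of all probe sets were called in either direction. H2-Aa and H2-Ab1 were higher at 12 months in Balb leg (1.88 and 0.79; adjusted p = 8.66e-06 and 0.0142) and passed in no other group. For H2-Ea in SJL leg the fit gave -2.02 (adjusted p = 0.00631), but 4 of those 5 arrays were under the filter's intensity of 194.3 and were not shown to exceed background, so no change is read from it. H2-DMb1 was lower in leg of both strains (Balb -1.64, adjusted p = 0.00414; SJL -1.15, 0.0253). H2-Eb1 was lower at 12 months in Balb leg (-0.65, adjusted p = 0.00993) and in SJL EOM (-0.70, 0.0163). Of these values of Cd74, H2-Aa, H2-Ab1, H2-DMb1 and H2-Eb1, none passed on 22 arrays by limma. There H2-Eb1 was 0.29 in Balb leg, the other sign (adjusted p = 0.783), and -0.42 in SJL EOM (0.698). H2-DMb1 was -1.46 in Balb leg (adjusted p = 0.0617) and -0.51 in SJL leg (0.512). Cd74 had adjusted p from 0.156 to 0.323, and H2-Aa and H2-Ab1 in Balb leg 0.171 and 0.180. The array medians of the ages did not overlap, and the part of that shift in these values was not tested on 18 arrays. Skeletal muscle genes moved with age as well: of 12 tested on the 18 arrays, 11 were lower at 12 months in Balb leg, 12 in SJL leg and 6 in EOM of each strain, and 0 were higher. On these 18 arrays their summed intensity at 10 months was 469487 to 560730 in Balb leg and 585176 to 674940 in SJL leg. At 12 months it was 135216 to 151161 and 121125 to 179838. In EOM it was 459079 to 464612 in Balb and 464717 to 494321 in SJL at 10 months, and 244049 to 297412 and 228329 to 272712 at 12 months. The 4 replicate 1 arrays at 10 months, not among these, gave 152358 to 185786. Dendritic cell sums on the 18 arrays were also lower at 12 months in each group. Over all groups they spanned 8732.0 to 11830.4 at 10 months and 4006.8 to 7235.3 at 12 months. With the replicate 1 arrays the 10-month sums reached 13559.3. The part of these genes in the age differences was not tested.

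Across the 22 arrays H2-Aa, H2-Ab1 and Cd74 moved together and H2-Ea did not move with them. Pearson's r of log2 values was 0.96 for H2-Aa with Cd74, 0.95 for H2-Aa with H2-Ab1 and 0.90 for H2-Ab1 with Cd74. H2-Ea gave -0.29 with H2-Aa, -0.34 with H2-Ab1, -0.44 with H2-Eb1 and -0.26 with Cd74. With group means removed the first 3 were 0.97, 0.94 and 0.96, and H2-Ea with H2-Aa was 0.02. The 22 arrays share strain, muscle, age and the low values of the replicate 1 arrays at 10 months, so these are descriptions.

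The genes whose pattern was most like that of H2-Ea over the 22 arrays were Pdxdc1 (r = 0.89), Rgs5 (0.87), Abcd3 (0.86), Gcsh (0.86) and Pla2g12a (0.86). The strain gap of H2-Ea enters this measure, so no strain test of these genes is given. For Cd74 the nearest were H2-Aa (0.96), Itm2c (0.95), C1qb (0.95), a complement chain made by macrophages, Lsp1 (0.95), a leukocyte protein, and Col1a1 (0.94), a fibrillar collagen chain. For H2-Aa they were Cd74 (0.96), C1qb (0.95), H2-Ab1 (0.95), Aars (0.94), a tRNA synthetase, and Lsp1 (0.93).

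The counts of the gene lists that follow stand against the shares of all probe sets called for strain, 1.41% in leg and 0.932% in EOM on 22 arrays and 8.18% and 8.26% on 18. Of the genes that prepare peptides and Cd74 in endosomes, 10 of 12 were tested. In SJL leg Ctss, the cathepsin that trims Cd74, was higher by 2.05 (log2, SE 0.35, adjusted p = 0.00248) and Lgmn, an asparagine-specific endopeptidase, by 0.82 (adjusted p = 0.0109), and the other 8 did not pass on 22 arrays. The list's median was 0.45, beside -0.02 for all probe sets. Ctss ran from 1043.9 to 3036.4 in Balb leg and from 3925.7 to 10420.7 in SJL leg, with no overlap. On 18 arrays 7 of 10 were higher, Ctsb, Ctsl, Ctsh, Ctsz and Ctsd joining these. In EOM 0 of 10 passed on 22 arrays by limma (0 at an unadjusted p under 0.05), and on 18 arrays Ctss was higher (0.74, adjusted p = 0.00694) and Ctsd lower (-0.63, 0.00601). The excess of the leg difference over the EOM difference passed on 18 arrays for Ctss (1.34, adjusted p = 0.00327), Ctsd (1.05), Lgmn (0.80) and Ctsl (0.69). In that comparison 1.79% of all probe sets were called on 18 arrays, 1.04% in this direction.

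The list for class II transcription mixed Ciita with NF-Y chains, coactivators and other factors, not all particular to class II. Of its 14 genes 9 were tested, and 0 passed in leg or EOM on 22 arrays by limma (0 at an unadjusted p under 0.05 in both), with medians of 0.05 and 0.11. On 18 arrays 0 passed in leg (1 at an unadjusted p under 0.05), and in EOM 1 passed, the acetyltransferase Kat2b (0.40, adjusted p = 0.0167). Ciita, the coactivator on which class II transcription depends, ran from 755.3 to 982.3 in SJL leg at 10 months and from 772.7 to 939.3 in Balb leg, and from 144.0 to 305.2 and 175.3 to 298.7 at 12 months, so the strains overlapped at each age. Of 21 genes of interferon gamma signalling, a list of receptor chains, kinases, induced genes and the cytokine Il4, 13 were tested and 0 passed in either muscle on 22 arrays by limma (3 at an unadjusted p under 0.05 in leg, 0 in EOM). On 18 arrays Igtp (1.08, adjusted p = 0.0200), Gbp2 (0.86), Gbp3 (0.92), which are interferon-induced GTPases, and the receptor chain Ifngr1 (0.56) were higher in SJL leg, and Gbp2 (1.02, adjusted p = 0.0144) in SJL EOM. Of the remaining class II genes H2-Oa and H2-DMb2 were tested, and neither passed in leg or EOM on 22 or 18 arrays. Of 3 costimulation genes tested out of 7, 0 passed on 22 arrays (1 at an unadjusted p under 0.05 in each muscle), and on 18 arrays Icam1, an adhesion molecule, was higher in leg (1.02, adjusted p = 0.0213) and Cd40 in EOM (1.65, 0.0218).

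Some macrophage markers, from cells that express class II, were higher in SJL leg. Of 30 macrophage genes 25 were tested, and 5 were higher in SJL leg on 22 arrays: Lyz2 (1.36, adjusted p = 0.00664), Lgals3 (1.63, 0.00964), Mmp12 (2.51, 0.0307), Mpeg1 (1.58, 0.0408) and Tyrobp (1.14, 0.0493). The list's median was 0.52, and on 18 arrays 9 were higher. Adgre1, which defines macrophages, lay at 87.1 to 658.6 in SJL leg and 58.5 to 147.3 in Balb leg, with overlap at 10 months, and missed the threshold (1.14, adjusted p = 0.33 on 22 arrays; 1.10, 0.213 on 18). In EOM 0 of 25 passed on 22 arrays by limma (0 at an unadjusted p under 0.05; median -0.06), and on 18 arrays C1qa was lower (-1.11, adjusted p = 0.0333) and none was higher. On all 22 arrays the summed intensity of the list at 10 months was 34631.6 to 56896.4 in SJL leg and 23999.9 to 30262.1 in Balb leg. At 12 months it was 25264.9 to 27123.1 and 14428.4 to 18560.6. In EOM the sums were 32382.0 to 40220.0 in SJL and 28893.4 to 37733.8 in Balb at 10 months. At 12 months they were 22192.1 to 22331.2 and 27492.2 to 31240.6, where SJL was the lower strain. The highest sum of each 10-month group was on its replicate 1 array. On the 18 arrays the 10-month sums were 34631.6 to 39813.9 in SJL leg and 23999.9 to 25505.8 in Balb leg. In EOM they were 32382.0 to 33655.4 in SJL and 28893.4 to 32222.4 in Balb. The part of these cells in the class II differences was not tested.

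Genes of B cells and dendritic cells, which also express class II, were tested in the same way. Of 16 B cell genes 9 were tested and 0 passed on 22 arrays by limma in either muscle (2 at an unadjusted p under 0.05 in leg, 1 in EOM). On 18 arrays Ighm, the immunoglobulin mu chain, was higher in SJL leg (1.32, SE 0.15, adjusted p = 1.98e-05). Ighm made up most of the B cell sum at 12 months in leg, at 14883.0 to 15431.5 in SJL and 5052.6 to 6695.8 in Balb, while Cd79a, which defines B cells, was at 131.8 to 412.5 and 191.1 to 496.2. Of 14 dendritic cell genes 6 were tested, and 0 passed in either muscle on 22 arrays by limma (0 at an unadjusted p under 0.05 in leg, 1 in EOM) or on 18 arrays (0 in both). Of 17 T cell genes, which mark the cells that read class II, 6 were tested and 0 passed in either muscle on 22 arrays (1 at an unadjusted p under 0.05 in leg, 0 in EOM) or on 18 (2 and 0). Cd3e, a defining T cell gene, lay at 66.7 to 94.7 in SJL leg at 12 months and was below the filter. The part of these cells was not tested either.

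**Figure D4:**
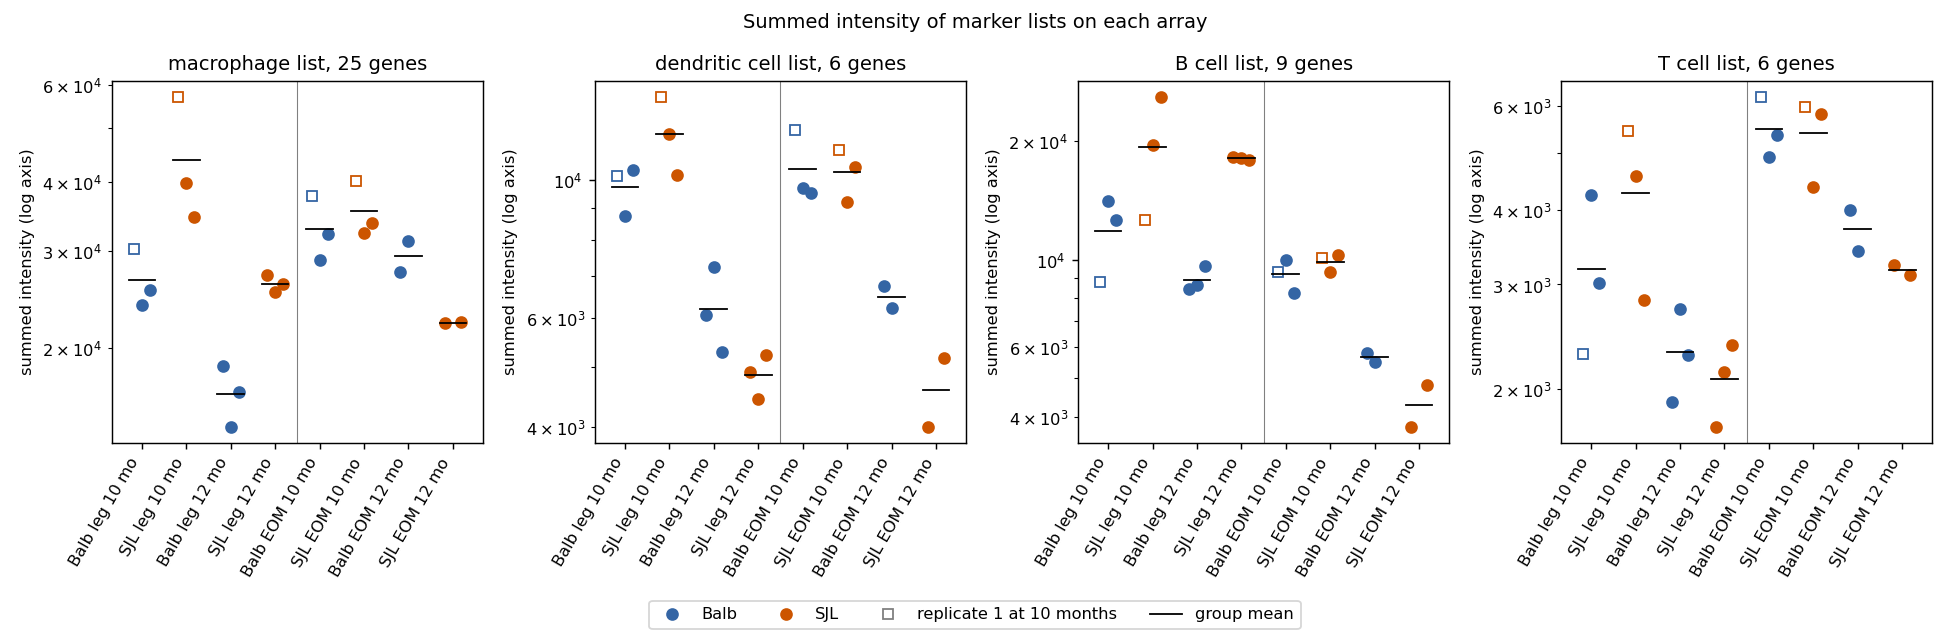
Summed intensity (log axis) of 4 marker lists on each array in the 8 groups; circles are arrays, open squares the replicate 1 arrays at 10 months, and black lines group means. The macrophage sum is higher in SJL than in Balb leg at both ages, and in EOM at 12 months SJL is lower.

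Genes that lie beside the class II genes on chromosome 17 gave a comparison by position. The members on that chromosome stand in the order H2-DMa, H2-DMb1, H2-Ab1, H2-Aa, H2-Eb1 and H2-Ea in the reference, and Cd74 lies on chromosome 18. Of 32 neighbours in the MHC, 25 were tested. In leg on 22 arrays 2 were lower in SJL, Pfdn6, a prefoldin chaperone subunit (-0.57, adjusted p = 0.0347), and Notch4, an endothelial Notch receptor (-1.0, adjusted p = 0.0476), and 0 were higher, with a median of 0.06. On 18 arrays Pfdn6, Notch4 and Agpat1 were lower and Tapbp and Psmb9, which serve class I presentation, were higher. In EOM 0 passed on 22 arrays by limma (4 at an unadjusted p under 0.05), and on 18 arrays Pfdn6 (-0.47, adjusted p = 0.00616) and Phf1 (-0.72, 0.0439) were lower, 2 of 25 where 8.26% of all probe sets were called.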

How the data were processed

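RNA of 22 muscle samples was measured on Affymetrix arrays. The authors deposited linear intensities, 1 per probe set and array, made with the standard Affymetrix protocol per the labels. Software, background correction and summarization are not given in the sources used here. The values had been scaled per array, since the mean without the top and bottom 2% was 1500.8 to 1501.1 on every array. Of 12488 probe sets, 66 controls were set aside, 10833 carried 1 symbol, 396 several and 1193 none in the platform annotation, and 10817 gene IDs matched a RefSeq table of assembly GRCm38.p6, used for names and gene order. Log2(intensity + 16) was used without further scaling, the lowest 30% of probe sets by mean were removed (a mean of log2 values equal to an intensity of 194.3), and 8695 were tested. limma 3.58.1 in R 4.3.3 fitted 8 group means with moderated variances, trended on intensity (residual df 14, prior df 3.63). Two-sided p-values were adjusted by Benjamini-Hochberg over all probe sets of a comparison, and 0.05 was the threshold. Strain and muscle differences weight ages equally. In gene lists each gene is its probe set of highest mean.

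The number of arrays limits the precision. The code was tested on simulated data. Alternatives were quantile normalization, median centring, pseudocounts of 1 and 64, no filter and a filter at 50%, a replicate block, the groups compared alone, the 18 arrays, and leaving out each array. The members and lists were chosen with earlier results of these data known. The text names every member, up to 4 genes per list by smallest adjusted p or those that passed, and the 5 genes of highest Pearson r with H2-Ea, Cd74 and H2-Aa. Tables and figures were made with Python 3.11.15, pandas 2.3.3 and matplotlib 3.10.9.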

Additional observations from a re-analysis of the deposited data

Results flagged for a closer look

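The age values of H2-Ea had opposite signs in a pair of groups, with every 12-month array beyond every 10-month array in each. In Balb EOM the age difference was 0.79 on the log2 scale (adjusted p = 0.518 by limma), and in SJL leg it was -1.58 (adjusted p = 0.0558). Neither passed. The SJL leg intensities were dim and not shown to exceed background, so no change is read from them. H2-Eb1 differed between the muscles at 12 months in opposite directions, EOM above leg by 0.51 in Balb and below it in SJL (-0.68), again without overlap. Cd74 did the same at 12 months, with 0.69 in Balb and -0.31 in SJL. Whether these effects differ between the groups was not tested, and groups of 2 or 3 arrays separate easily. The items were picked because they separate in opposite directions. The share of all probe sets that do so was not counted, so nothing particular to the members is read from them.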

How the results depend on the processing

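H2-Ea was lower in SJL in leg and in EOM under each of the alternatives in which it was tested, from -3.06 to -2.24 and from -4.45 to -3.31 on the log2 scale, and without any 1 array (-3.05 to -2.56 and -4.38 to -3.67); with the lowest 50% of probe sets removed it was not tested. On the 18 arrays the number of members called went from 1 to 5 for strain in leg, 1 to 3 for strain in EOM, 0 to 2 for the strain difference between muscles, 0 to 4 and 0 to 2 for EOM against leg in Balb and SJL, 0 to 4 and 1 to 5 for strain in leg at 10 and 12 months, 1 to 2 for strain in EOM at 10 months, and, for age, 1 to 6 in Balb leg, 0 to 2 in Balb EOM, 1 to 4 in SJL leg and 1 to 3 in SJL EOM. Strain in leg gave 2, H2-Ea and H2-Eb1, with median centring, a pseudocount of 64 or the replicate block. With the lowest 50% removed, 0 members were called for strain in EOM, for strain in EOM at 10 and at 12 months and for strain in leg at 12 months. Strain in EOM at 10 months also gave 0 with median centring, a pseudocount of 1, no filter or only the groups compared. Fitting only the groups compared gave 1 for EOM against leg in Balb, 5 for strain in leg at 12 months, and for age 2 in Balb leg, 0 in SJL leg and 0 in SJL EOM. Age in Balb EOM gave 1 with quantile normalization, median centring, a pseudocount of 64, the lowest 50% removed or the replicate block, and age in SJL leg gave 2 with the block. H2-DMb1 for strain in EOM turned from -0.03 to 0.0655 (quantile normalization), 0.0821 (median centring) and 0.0121 (replicate block). The cause was not tested.

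Leaving out 1 array gave 1 to 2 members for strain in leg, 1 to 2 for strain in leg at 12 months (2 without Balb leg replicate 1 at 10 months), 0 to 1 for strain in EOM at 10 months, and for age 0 to 2 in Balb leg, 0 to 1 in Balb EOM, 0 to 2 in SJL leg and 1 to 2 in SJL EOM. Uncalled values that changed sign were Cd74 (-0.24 to 0.75), H2-Aa (-0.16 to 1.19), H2-Ab1 (-0.0585 to 0.71) and H2-DMb1 (-0.25 to 0.11) for strain in EOM, Cd74, H2-Aa and H2-Ab1 without Balb EOM replicate 1 at 10 months among others, and H2-DMa at its dimmer probe set for strain in leg (-0.0457 to 0.21).

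The labels do not say that replicate numbers pair the samples. Deviations of same-numbered arrays correlated at 0.294 to 0.690 between muscles and 0.341 to 0.759 between strains at 10 months, where the replicate 1 arrays stood apart, but at -0.0152 to 0.0141 and -0.0809 to -0.00903 at 12 months. Without the replicate 1 arrays, the 10-month correlations were -0.015, -0.013, 0.013 and 0.017. The block changed no count of members for strain at 10 months. Over all probe sets the 18 arrays called 711 instead of 123 for strain in leg, 718 instead of 81 in EOM and 156 instead of 8 between muscles. Median centring moved the median of all probe sets for age in SJL leg from -0.10 to 0.36, and the split of calls from 518 higher and 1680 lower to 1719 and 1047; in Balb leg it went from 279 and 1379 to 988 and 745, and for EOM against leg in Balb from 758 and 423 to 428 and 694. The rises of H2-DMa with age at its brighter probe set kept their direction under both scalings. At the dimmer probe set the age value in SJL leg changed sign, from -0.44 to 0.02 with median centring and 0.06 with quantile normalization. The other groups kept their sign there. Dim probe sets are limited by background, for which no value was used here.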
